A study of Rattus norvegicus with 12 samples.

Results

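Inflammasome and pyroptosis genes were followed in LV myocardium after myocardial infarction, in the 8 members Nlrp3, Nlrp1a, Nlrc4, Aim2, Pycard, Casp1, Casp4 and Gsdmd. They were picked by gene symbol from a table of 34599 loci, each symbol matched 1 locus, and all 8 were among the 15101 genes that passed the filter on low counts. Total RNA had been sequenced from 12 male rats, 4 per group. Sham rats had a thoracotomy without ligation, and MI rats had the left anterior descending coronary artery (LAD) ligated. iCarP+/Light+ rats had the same ligation, then an injection of the green alga Chlorella into the infarcted LV, then the iCarP patch glued to the epicardium with an adhesive named CCS@gel, and were exposed to light, and are called treated rats where a sentence lists all groups. The treated rats therefore differed from MI rats in alga, patch, adhesive and light at once, and the group with the patch but no light was not analysed here. Per the labels, tissue was taken from the MI region at day 1 after surgery, and the labels name neither a sequencing batch nor cell sorting, so every value is a sum over the cells of the tissue piece.

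The libraries held 14064414 to 17136958 counted reads, and 3 counts, the smallest level taken as detectable, corresponded to 0.144 to 0.228 CPM (counts scaled to a common library total by TMM). This limit covers counting error only. Mitochondrial genes took 22.8% to 28.9% of the counts in Sham rats, 8.52% to 11.5% in MI rats and 7.14% to 14.2% in treated rats, and libraries were scaled by the TMM method, which is less sensitive than total counts to a shift of that kind. The cardiomyocyte list, 9 genes of the contractile apparatus and calcium handling, summed to 45413 to 49933 CPM in Sham rats, 2824 to 5680 in MI rats and 2272 to 6764 in treated rats. Its 9 genes were all lower in MI than in Sham, among them Myh6, a myosin heavy chain of the heart (log2 fold change -4.73, SE 0.34), and Tnnt2, cardiac troponin T (-2.49, SE 0.33). From MI to iCarP+/Light+ Myh6 was 0.01 (SE 0.29, adjusted p = 0.995, edgeR) and Tnnt2 was -0.10 (SE 0.31, adjusted p = 0.875, edgeR).

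Inflammasomes are protein platforms that form in the cytosol when a sensor meets a danger signal. The sensors Nlrp3, Nlrp1a, Nlrc4 and Aim2 recruit, directly or through the adaptor Pycard (ASC), the protease Casp1, which matures the cytokines Il1b and Il18 and cuts Gsdmd. Casp4 is the protease of the non-canonical branch, which binds bacterial lipopolysaccharide in the cytosol and cuts Gsdmd itself. The freed end of Gsdmd forms pores in the plasma membrane, and the lytic death that follows is called pyroptosis. In the infarcted heart the pathway is known chiefly from infiltrating myeloid cells and from fibroblasts, and its activity is set by protein assembly and cleavage, which RNA levels do not show.

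From Sham to MI, the sensors Nlrp3, Nlrc4 and Aim2, the adaptor Pycard, the protease Casp1 and the pore protein Gsdmd rose, between 1.55-fold for Gsdmd and 7.76-fold for Nlrc4. These were 6 of the 8 members, in a comparison in which 30.2% of the genes tested were called higher and 33.6% lower (edgeR's quasi-likelihood test, Benjamini-Hochberg adjusted p under 0.05). Nlrp1a and Casp4 did not pass the test. From MI to iCarP+/Light+, Nlrp3 rose a further 5.68-fold, Nlrc4 5.99-fold and Casp4 2.19-fold, 3 of the 8 members against a background of 11.6% of genes called higher and 2.01% called lower. Over all 12 rats no member was called lower with edgeR and TMM or with limma-voom, in each of which 1 member, Gsdmd, was lower at an unadjusted p under 0.05. Gsdmd was called lower with edgeR under other scalings and with DESeq2, in which 2 members were lower at an unadjusted p under 0.05, and Pycard was called lower with total counts. From Sham to iCarP+/Light+, Nlrp3, Nlrc4, Aim2, Pycard and Casp1 were called higher, 5 of the 8, where 33.5% of genes were called higher and 33.0% lower. These comparisons share groups, so they are not independent of each other.

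The split of calls between higher and lower depended on the scaling of libraries. Of the genes called, 47.3% were higher in MI than in Sham, 85.2% higher in iCarP+/Light+ than in MI and 50.4% higher in iCarP+/Light+ than in Sham. With libraries scaled by total counts alone these shares were 73.5%, 30.6% and 64.7%, the median log2 fold change of all genes was 0.52, -0.25 and 0.33 in place of -0.06, 0.01 and 0.02, and with DESeq2 the share from MI to iCarP+/Light+ was 70.8%. Relative to the median of all genes, Nlrp3 was 2.49 higher from MI to iCarP+/Light+ on the log2 scale with TMM and 2.49 with total counts, and Pycard was -0.51 and -0.49.

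**Figure D1:**
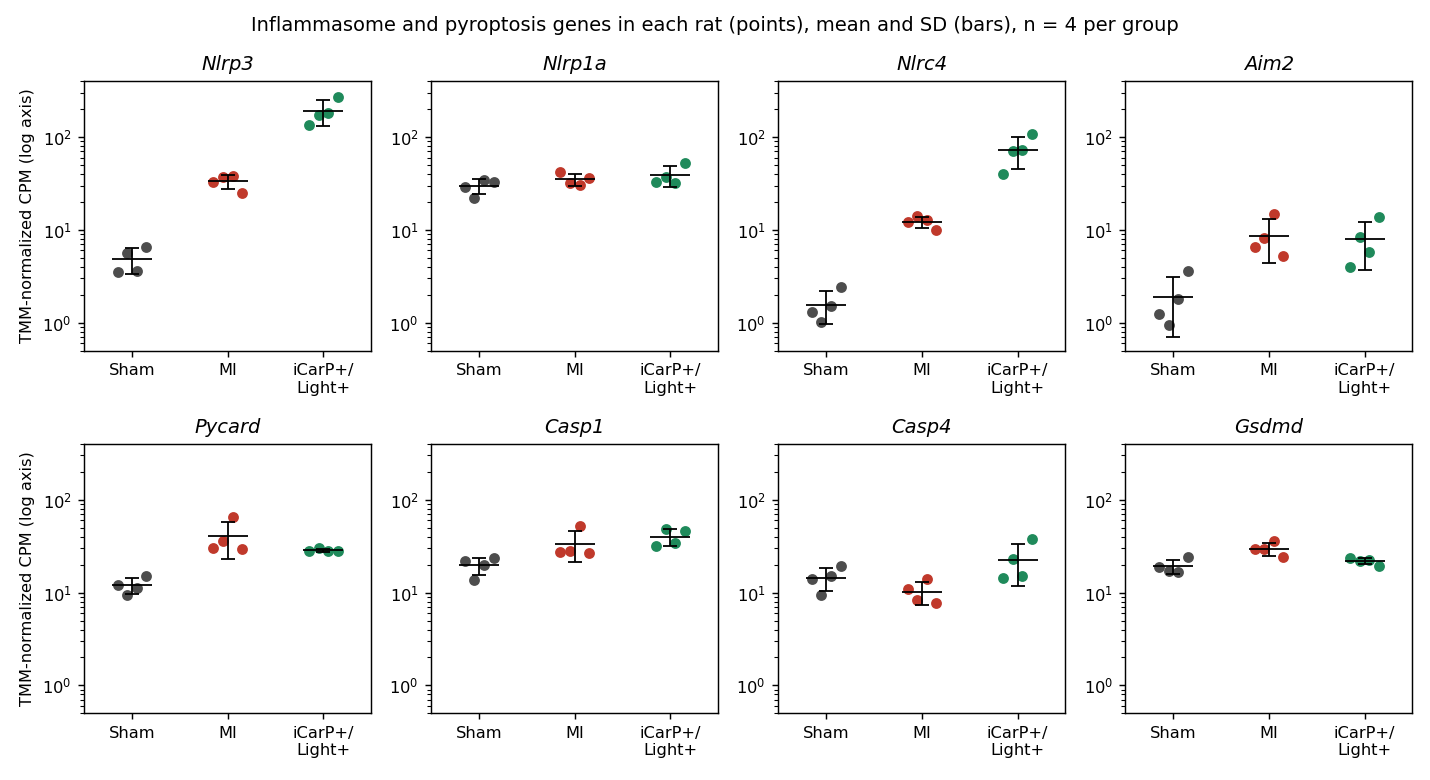
TMM-normalized CPM on a log axis for each of the 8 genes in Sham, MI and iCarP+/Light+ rats. Points are rats, horizontal bars are group means and whiskers are the SD (n = 4). Nlrp3 and Nlrc4 form 3 separate levels, whereas Gsdmd is highest in MI. Pycard has its highest mean in MI, but its MI and treated rats overlap.

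Nlrp3 is the sensor of ion flux, lysosomal damage and other signs of cell stress, and it is listed as ENSRNOG00000003170 on chromosome 10 from 45893018 to 45918254 (build rn6, plus strand). Its level was 3.54, 5.66, 3.64 and 6.55 CPM in the 4 Sham rats, 33.2, 36.7, 38.4 and 25.1 in the MI rats and 135, 171, 179 and 273 in the treated rats. The 3 groups did not overlap, and the lowest treated rat was more than 3 times the highest MI rat. On the log2 scale the step from Sham to MI was 2.78 (SE 0.26, adjusted p = 1.29e-06, edgeR), and the value between MI and iCarP+/Light+ rats was 2.51 (SE 0.24, adjusted p = 2.31e-05, edgeR). Over both steps it was 5.28 (SE 0.28, adjusted p = 1.83e-08, edgeR), or 39.0-fold. With each of the 12 rats left out in turn the value from MI to iCarP+/Light+ was 2.20 to 2.64, below the threshold in all 12 fits.

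Nlrc4 detects bacterial flagellin and secretion needles through NAIP receptors and is listed as ENSRNOG00000005810 on chromosome 6 from 22167919 to 22194250 (plus strand). Sham rats had 15 to 33 counts of it. Its level was 1.30, 1.02, 1.52 and 2.43 CPM in Sham, 12.1, 14.0, 12.6 and 9.99 in MI and 40.2, 70.5, 73.2 and 107.9 in treated rats. As with Nlrp3, no rat of one group reached into another. The step from Sham to MI on the log2 scale was 2.96 (SE 0.32, adjusted p = 4.09e-06, edgeR), 2.58 from MI to iCarP+/Light+ (SE 0.27, adjusted p = 4.30e-05, edgeR) and 5.54 from Sham to iCarP+/Light+ (SE 0.33, adjusted p = 3.65e-08, edgeR).

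Aim2, a sensor of double-stranded DNA in the cytosol (ENSRNOG00000003480, chromosome 13 from 91954138 to 91962588, plus strand), rose with MI and did not pass the test at the second step. It was measured at 1.23, 0.954, 1.82 and 3.61 CPM in Sham, 6.46, 8.19, 14.8 and 5.21 in MI and 4.00, 8.33, 5.75 and 13.7 in treated rats. Every MI rat and every treated rat was above every Sham rat, while MI and treated rats overlapped over most of their range. On the log2 scale MI rats exceeded Sham by 2.19 (SE 0.49, adjusted p = 0.00162, edgeR), and the value between MI and iCarP+/Light+ rats was -0.13 (SE 0.45, 95% interval -1.09 to 0.84, adjusted p = 0.897, edgeR). That interval holds changes of about 2-fold in either direction, and the sign of the latter value turned to 0.26 without MI rat 4, 0.09 without iCarP+/Light+ rat 1 and 6.4e-04 without iCarP+/Light+ rat 4.

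Nlrp1a senses pathogen proteases and the inhibition of dipeptidyl peptidases (ENSRNOG00000023143, chromosome 10 from 57692474 to 57822498, minus strand). Its level was 29.2, 22.02, 34.2 and 32.8 CPM in Sham, 41.5, 32.0, 30.1 and 36.2 in MI and 32.5, 36.7, 32.1 and 52.7 in treated rats, and the 3 groups overlapped. The MI rats differed from Sham on the log2 scale by 0.24 (95% interval -0.15 to 0.64, adjusted p = 0.264, edgeR), and the value between MI and iCarP+/Light+ rats was 0.14 (-0.26 to 0.53, adjusted p = 0.697, edgeR). With total counts the former was 0.83 and was called higher (adjusted p = 6.82e-04, edgeR) and the latter was -0.14, which was also -0.13 without iCarP+/Light+ rat 5. Rodents carry near-identical copies of Nlrp1, and how reads shared between copies were counted is not given in the sources used here, so the level of this gene is uncertain.

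Pycard, the adaptor that links sensors to Casp1, is listed as ENSRNOG00000019675 on chromosome 1 from 199437832 to 199439210 (minus strand). Its level was 12.2, 9.41, 11.2 and 15.1 CPM in Sham, 30.1, 36.2, 65.7 and 29.2 in MI and 28.3, 30.1, 28.0 and 27.7 in treated rats. The treated rats lay within 27.7 to 30.1 CPM, the narrowest spread of any member in any group (coefficient of variation 3.72%), and MI rat 4 stood above the rest. On the log2 scale MI minus Sham was 1.75 (SE 0.24, adjusted p = 3.22e-05, edgeR), and the value between MI and iCarP+/Light+ rats was -0.50 (SE 0.23, 95% interval -0.996 to 8.8e-04, adjusted p = 0.196, edgeR). The latter value was -0.16 without MI rat 4 and -0.75 with total counts (adjusted p = 0.0226, edgeR).

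Casp1, the protease that matures the cytokines (ENSRNOG00000007372, chromosome 8 from 2604962 to 2614631, plus strand), had the smallest called step with MI apart from Gsdmd. It was measured at 21.6, 13.8, 19.8 and 23.3 CPM in Sham, 27.4, 27.7, 51.9 and 27.0 in MI and 31.5, 48.0, 33.8 and 46.2 in treated rats. MI and treated rats were all above the Sham rats, and MI rat 4 exceeded the treated rats. The rise from Sham to MI on the log2 scale was 0.77 (SE 0.24, adjusted p = 0.0130, edgeR), 0.49 without MI rat 4, with an adjusted p under 0.05 in each of the 12 fits that left out a rat. From MI to iCarP+/Light+ it was 0.25 (SE 0.24, 95% interval -0.26 to 0.76, adjusted p = 0.565, edgeR), or -0.01 with total counts, and from Sham to iCarP+/Light+ it was 1.02 (SE 0.24, adjusted p = 0.00216, edgeR).

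Casp4 lies beside Casp1 on chromosome 8, from 2635851 to 2651652 (ENSRNOG00000033697, plus strand), and was called from MI to iCarP+/Light+ but not from Sham to MI. Its level was 14.0, 9.41, 15.0 and 19.3 CPM in Sham, 10.9, 8.41, 14.0 and 7.76 in MI and 14.5, 22.9, 14.9 and 37.7 in treated rats. Sham and MI rats overlapped, and the lowest treated rat lay just above the highest MI rat. From Sham to MI the log2 fold change was -0.49 (SE 0.32, 95% interval -1.18 to 0.19, adjusted p = 0.192, edgeR), a value that was 0.08 with total counts. From MI to iCarP+/Light+ it was 1.13 (SE 0.32, adjusted p = 0.0304, edgeR). That call was lost without iCarP+/Light+ rat 5 (0.69, adjusted p = 0.149, edgeR) or rat 2 (1.12, adjusted p = 0.0670) and without MI rat 1 (1.16, adjusted p = 0.0627), rat 3 (1.05, adjusted p = 0.0809) or rat 5 (1.02, adjusted p = 0.0820).

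Gsdmd, the pore-forming end point of the pathway (ENSRNOG00000007728, chromosome 7 from 116889572 to 116894134, plus strand), was highest in MI. Its level was 18.8, 17.04, 16.7 and 24.1 CPM in Sham, 29.2, 29.4, 35.9 and 24.4 in MI and 23.6, 22.04, 22.4 and 19.4 in treated rats. All MI rats lay above all Sham and all treated rats, although Sham rat 5 and MI rat 5 were nearly level, and treated and Sham rats overlapped. On the log2 scale the rise from Sham to MI was 0.63 (SE 0.15, adjusted p = 0.00201, edgeR), and the value between MI and iCarP+/Light+ rats was -0.44 (SE 0.15, 95% interval -0.76 to -0.13, adjusted p = 0.0638, edgeR). The latter did not pass the threshold with TMM, and did with DESeq2's size factors (-0.49, adjusted p = 0.0408, edgeR), without mitochondrial genes (-0.48, adjusted p = 0.0473), with total counts (-0.70, adjusted p = 0.00550), with DESeq2 (-0.49, adjusted p = 0.0165) and without MI rat 5 (-0.53, adjusted p = 0.0359) or Sham rat 5 (-0.44, adjusted p = 0.0420).

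The 24 comparisons of the 8 members were repeated on log2 CPM with an exact permutation test, two-sided. With 4 rats against 4 its smallest p is 0.0286, and groups that did not overlap gave that value, which was 0.0457 after Benjamini-Hochberg adjustment over the 24 comparisons. By this test the 6 members called from Sham to MI and the 5 called from Sham to iCarP+/Light+ all reached it. From MI to iCarP+/Light+ it was reached by Nlrp3, Nlrc4 and Casp4, which were higher, and by Gsdmd, which was lower. Pycard gave p = 0.0571 in the exact test.

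**Figure D2:**
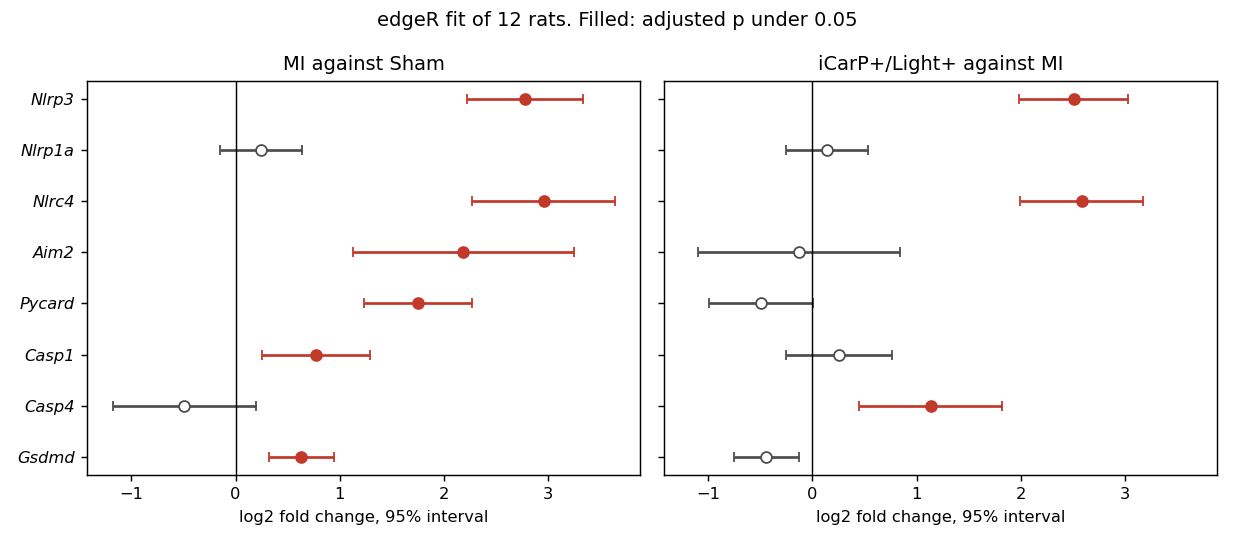
log2 fold change of each member with its 95% interval in the edgeR fit of 12 rats, MI against Sham on the left and iCarP+/Light+ against MI on the right. Filled points have an adjusted p under 0.05, which were 6 genes on the left and Nlrp3, Nlrc4 and Casp4 on the right.

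Levels of different genes were compared as TPM, transcript abundances on a common total per rat, which divide counts by the gene length in the table. In Sham rats Pycard (15.1 ± 2.84 TPM), Casp1 (15.0 ± 2.87), Casp4 (13.8 ± 3.63) and Gsdmd (11.5 ± 2.05; SD, n = 4 each) stood at the top, and neighbours in this order overlapped between rats. The sensors were lower, with Nlrp1a at 4.88 ± 0.734, Aim2 at 2.07 ± 1.29, Nlrp3 at 1.38 ± 0.454 and Nlrc4 at 0.530 ± 0.201 TPM (SD, n = 4 each). In MI rats Pycard led with 83.1 ± 26.5 TPM, above Casp1 at 42.0 ± 11.0 and Gsdmd at 29.7 ± 2.502 (SD, n = 4 each), 3 levels that did not overlap. In iCarP+/Light+ rats Nlrp3 led with 72.5 ± 21.2 TPM, and all 4 rats were above the Pycard range of 46.3 to 50.9 TPM. Casp1 at 41.3 ± 7.93, Nlrc4 at 33.5 ± 12.3 and Casp4 at 29.1 ± 13.4 TPM (SD, n = 4 each) followed, each overlapping its neighbour. By its mean Nlrp3 held place 7 of the 8 members in Sham, where it overlapped Aim2, place 5 in MI, where it overlapped Casp4 and Aim2, and place 1 in treated rats, without overlap with Pycard in the next place.

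Each member's share of the set is given as a description. Nlrp3 took 2.19% ± 0.809 of the summed TPM of the 8 members in Sham, 7.31% ± 1.32 in MI and 27.2% ± 2.67 in treated rats (SD, n = 4 each). Nlrc4 took 0.807% ± 0.144, 3.25% ± 0.733 and 12.4% ± 2.41 in the same order of groups. Pycard took 23.6% ± 0.940 in Sham, 37.5% ± 3.97 in MI and 19.3% ± 4.23 in treated rats, and Gsdmd 18.1% ± 2.21, 13.8% ± 1.86 and 7.11% ± 2.05. These shares are computed within each rat and do not depend on how libraries are scaled. Shares sum to the same total in every rat, so a larger share of 1 gene lowers the others.

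**Figure D3:**
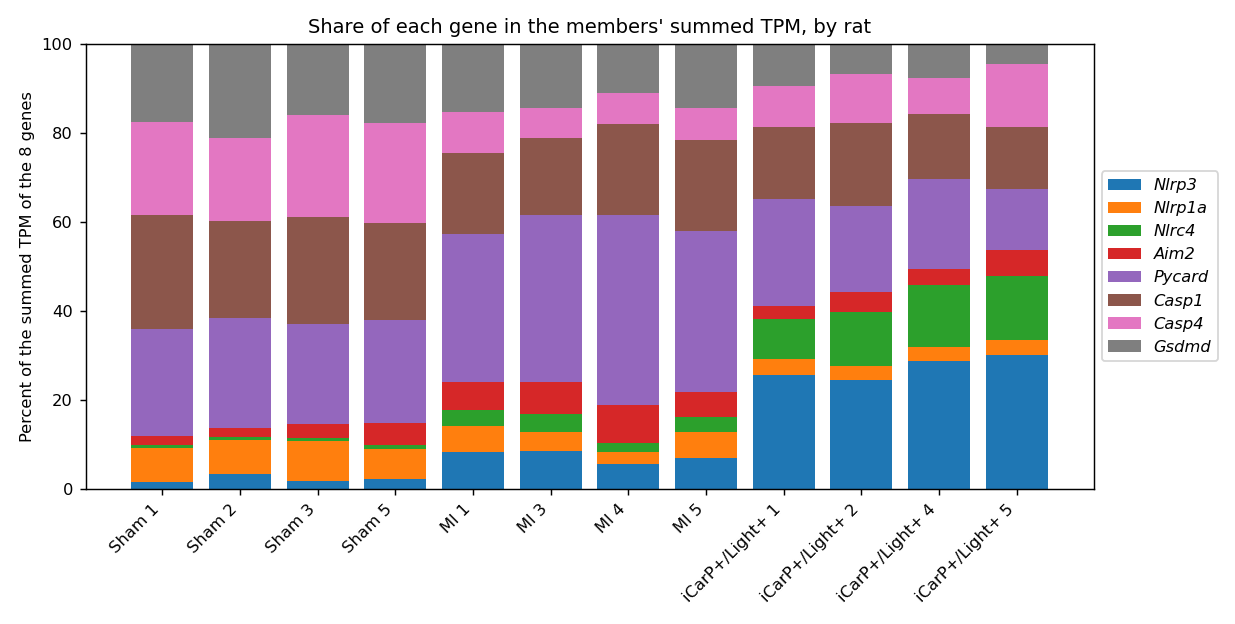
Stacked bars of each gene's percent of the summed TPM of the 8 members, 1 bar per rat. The Nlrp3 segment is 1.55% to 3.31% in Sham rats, 5.59% to 8.50% in MI rats and 24.4% to 30.1% in treated rats.

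Promoter sequence was at hand for 5 of the 8 members (Pycard, Casp1, Nlrp3, Nlrp1a and Aim2) in RefSeq's build GRCr8, whose coordinates are not those of rn6. Each stretch holds the 250 bases before and the 50 bases from the start site on. Those of Nlrp3, which rose at both steps, and Pycard, which was called at the first only, are shown from 5′ to 3′ on the gene's strand, with matches to the motifs searched in capitals.
Nlrp3: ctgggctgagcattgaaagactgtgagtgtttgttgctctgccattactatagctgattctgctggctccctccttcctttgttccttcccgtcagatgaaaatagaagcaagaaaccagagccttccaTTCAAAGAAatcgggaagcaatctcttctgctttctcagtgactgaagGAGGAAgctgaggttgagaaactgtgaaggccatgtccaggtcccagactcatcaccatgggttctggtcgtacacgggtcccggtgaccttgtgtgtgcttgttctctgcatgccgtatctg
Pycard: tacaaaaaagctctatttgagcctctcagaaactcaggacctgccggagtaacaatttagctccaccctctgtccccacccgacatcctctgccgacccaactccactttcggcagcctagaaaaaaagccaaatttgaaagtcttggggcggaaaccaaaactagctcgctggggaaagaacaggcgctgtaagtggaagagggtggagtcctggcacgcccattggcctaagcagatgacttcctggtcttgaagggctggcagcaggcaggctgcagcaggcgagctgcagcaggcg
The Nlrp3 stretch is chr10:44827848-44828147 on the plus strand and the Pycard stretch is chr1:192033370-192033669 on the minus strand. Both strands were searched for AP-1 (TGANTCA), the kappaB motif, the ISRE core (GAAA, 2 bases of any kind, GAAA), GAS (TTCNNNGAA), the hypoxia response core (ACGTG) and the PU.1 core (GAGGAA). In Nlrp3 a GAS match lay from base -121 to -113 and a PU.1 core from -73 to -68, counted from the start site, whereas the Pycard stretch held no match. Casp1 held an ISRE core from -28 to -19 and a PU.1 core from -166 to -161, Aim2 held a PU.1 core from -84 to -79, and Nlrp1a held none. Among all 33469 rat promoters of this length, 27.6% held the PU.1 core, 19.3% the hypoxia response core, 8.87% GAS, 7.33% AP-1, 4.18% the kappaB motif and 3.92% the ISRE core. None of the matches in the members overlapped another. A match is only a run of letters, and no binding was measured here.

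The other genes of the pathway were counted in 8 lists, in which 60 genes passed the filter on low counts. From Sham to MI 29 of the 60 were called higher and 11 lower, and from MI to iCarP+/Light+ 25 were called higher and 1 lower (edgeR). Over all genes tested, 30.2% were called higher and 33.6% lower at the first step and 11.6% and 2.01% at the second, the background for the counts of each list. Their median log2 fold change was 0.43 and 0.33, against -0.06 and 0.01 over all genes tested. List medians were largest for substrates and released alarmins (3.48 from Sham to MI and 3.37 from MI to iCarP+/Light+) and, at the second step, for the restraining genes (0.70 and 3.16). They were 0.28 and 0.07 for assembly and triggering, 0.16 and 0.19 for membrane repair and -0.21 and 0.24 for the other caspases.

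Of 7 substrates and released alarmins, 4 were called higher from Sham to MI and 5 higher and 1 lower from MI to iCarP+/Light+. Il1b, the main cytokine matured by Casp1, was 1.95, 1.91, 2.58 and 3.98 CPM in Sham, 35.9, 41.2, 63.9 and 30.5 in MI and 1131, 1374, 1824 and 2428 in treated rats. The groups were far apart, with log2 fold changes of 4.04 (SE 0.34, adjusted p = 5.93e-07, edgeR) and 5.30 (SE 0.34, adjusted p = 1.77e-06, edgeR). Il18, the other cytokine that Casp1 matures, went the opposite way at the second step. It was 1.88, 1.70, 1.90 and 3.83 CPM in Sham, 29.9, 19.6, 35.7 and 18.8 in MI and 8.63, 6.58, 4.47 and 7.52 in treated rats. Every treated rat lay below every MI rat and above every Sham rat, with log2 fold changes of 3.48 from Sham to MI (SE 0.32, adjusted p = 1.25e-06, edgeR), and the value between MI and iCarP+/Light+ rats was -1.93 (SE 0.29, adjusted p = 6.34e-04, edgeR). Il1a, an alarmin that does not need Casp1 for activity, was at most 0.727 CPM in Sham and MI rats, with 0 to 13 counts per rat, and 181 to 369 CPM in iCarP+/Light+ rats (log2 fold change from MI 9.79, SE 0.54, adjusted p = 1.77e-06, edgeR). That value rests on 0 to 13 counts per MI rat and was 9.38 without MI rat 5 and 10.66 without MI rat 4. S100a8 and S100a9, alarmins stored in neutrophils, rose by 6.37 and 5.94 with MI on the log2 scale, and by 3.37 and 3.53 from MI to iCarP+/Light+.

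Of 7 genes that restrain the pathway or its cytokines, 4 were called higher and 1 lower with MI, and 5 were called higher from MI to iCarP+/Light+. Il1rn, the antagonist of the Il1 receptor, was 2.82 to 6.33 CPM in Sham rats, 210 to 479 in MI rats and 1784 to 3701 in treated rats. Il1r2, the decoy receptor, was 0.0758 to 0.545, 26.8 to 70.04 and 492 to 1221 CPM. Neither gene's groups overlapped, and the log2 fold changes from MI to iCarP+/Light+ were 3.16 (SE 0.34) for Il1rn and 3.97 (SE 0.35) for Il1r2. Serpinb1a, an inhibitor of neutrophil and inflammatory proteases, rose by 3.88 on the log2 scale at that step (SE 0.44, adjusted p = 6.88e-05, edgeR).

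Among 8 other sensors, 3 were called higher and 3 lower with MI, near the shares of 30.2% and 33.6% over all genes tested. From MI to iCarP+/Light+ 4 of these sensors were called higher, where 11.6% of all genes tested were. Nlrp12, Nod2 and Mefv (pyrin) were those with the largest called steps. Nlrp12 was 0.121, 8.65 and 45.7 CPM on average in Sham, MI and iCarP+/Light+ rats, with log2 fold changes of 6.01 (SE 0.64) and 2.40 (SE 0.39). The Sham rats had 0, 6, 0 and 1 counts, and the former value was 8.06 without Sham rat 2 and 5.62 without Sham rat 1. Nod2, a receptor of bacterial cell wall fragments, rose by 2.74 and 3.31 on the log2 scale, and Mefv by 2.83 and 2.88. All 3 genes had the same order of groups as Nlrp3, with no overlap between any of them.

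Of 14 genes of assembly and triggering, 7 were called higher and 2 lower with MI, and Txnip was the single call from MI to iCarP+/Light+ (0.71, SE 0.18, adjusted p = 0.0172, edgeR), which was lost without MI rat 1 (0.65, adjusted p = 0.0552) or iCarP+/Light+ rat 5 (0.49, adjusted p = 0.103) and with total counts (0.43, adjusted p = 0.0863). Nek7, the kinase that Nlrp3 binds on activation, was 35.1 to 45.6 CPM in Sham rats, 32.4 to 56.5 in MI rats and 39.2 to 46.4 in treated rats, and its log2 fold changes of 0.16 and -0.05 did not pass the test (SE 0.15 each, adjusted p = 0.384 and 0.874, edgeR), although the former was 0.75 and called with total counts (adjusted p = 0.00120). Ripk3, a kinase of necroptosis that can also drive Nlrp3, rose by 3.19 with MI (SE 0.22, adjusted p = 1.42e-07, edgeR). Gbp5, an interferon-induced GTPase, fell by 3.07 on the log2 scale (SE 0.50, adjusted p = 1.40e-04, edgeR). Among the other caspases, Casp12 fell by 1.28 with MI (SE 0.24), and Casp8, an initiator of apoptosis, rose from MI to iCarP+/Light+ (0.91, SE 0.17, adjusted p = 0.00328, edgeR).

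Ninj1, which breaks the plasma membrane of dying cells after the pores have formed, was 53.4 to 66.7 CPM in Sham rats, 95.1 to 233 in MI rats and 209 to 407 in treated rats, and rose by 1.39 (SE 0.25, adjusted p = 3.33e-04, edgeR) and 0.87 (SE 0.25, adjusted p = 0.0329, edgeR) on the log2 scale. The latter call was lost without MI rat 1, 3 or 5 (0.85, 0.86 and 0.69) or iCarP+/Light+ rat 4 or 5 (0.86 and 0.58), with adjusted p from 0.0681 to 0.165, and also with total counts (0.61, adjusted p = 0.0578, edgeR) or the compared groups alone (0.83, adjusted p = 0.101). Its relative Ninj2 fell by 2.56 with MI (SE 0.41). Gsdme, another gasdermin, was 0.607 to 2.29 CPM over all rats, without a call. Gsdma had 0 counts in every Sham rat and 1.49 ± 0.870 CPM in MI rats (SD, n = 4), at least 6.84-fold higher than the level of 3 counts per Sham library, and 3.37 ± 1.88 CPM in iCarP+/Light+ rats (SD, n = 4). Of 9 genes of membrane repair, 3 were called higher and 2 lower with MI, where 30.2% and 33.6% of all genes tested were, so this count is near the background, and 3 were called higher from MI to iCarP+/Light+, where 11.6% of all genes tested were. Anxa2, an annexin that seals lesions, rose by 2.15 and 0.62 on the log2 scale, Vps4b, an ATPase of the ESCRT machinery, by 0.64 at the second step, and Chmp4c, an ESCRT subunit, fell by 1.97 with MI. The second step of Anxa2 was not called without MI rat 1, 3 or 5 (0.62, 0.55 and 0.51) or iCarP+/Light+ rat 2 or 5 (0.60 and 0.42), with adjusted p from 0.0714 to 0.170 in edgeR, nor with DESeq2's size factors (0.57, adjusted p = 0.0518), total counts (0.35, adjusted p = 0.103) or the compared groups alone (0.57, adjusted p = 0.120).

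Of 7 receptors and relays that license the pathway, 5 were called higher at each step. Tlr2, a receptor of bacterial lipoproteins, was 8.72 to 17.6 CPM in Sham rats, 106 to 168 in MI rats and 374 to 841 in treated rats. Its groups did not overlap (log2 fold changes 3.70, SE 0.30, and 2.07, SE 0.28). Cd14, its co-receptor, rose by 2.92 with MI (SE 0.27) and was 0.69 from MI to iCarP+/Light+ (adjusted p = 0.0888, edgeR), or 0.86 without MI rat 4 (adjusted p = 0.0426). Nfkb1, a subunit of NF-kappaB, was 0.20 with MI (adjusted p = 0.245, edgeR) and rose by 1.28 from MI to iCarP+/Light+ (SE 0.15, adjusted p = 7.03e-05, edgeR). Its step with MI was called with total counts (0.78, adjusted p = 2.29e-04, edgeR), with the compared groups alone (0.34, adjusted p = 0.0163) and without iCarP+/Light+ rat 5 (0.30, adjusted p = 0.0475).

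**Figure D4:**
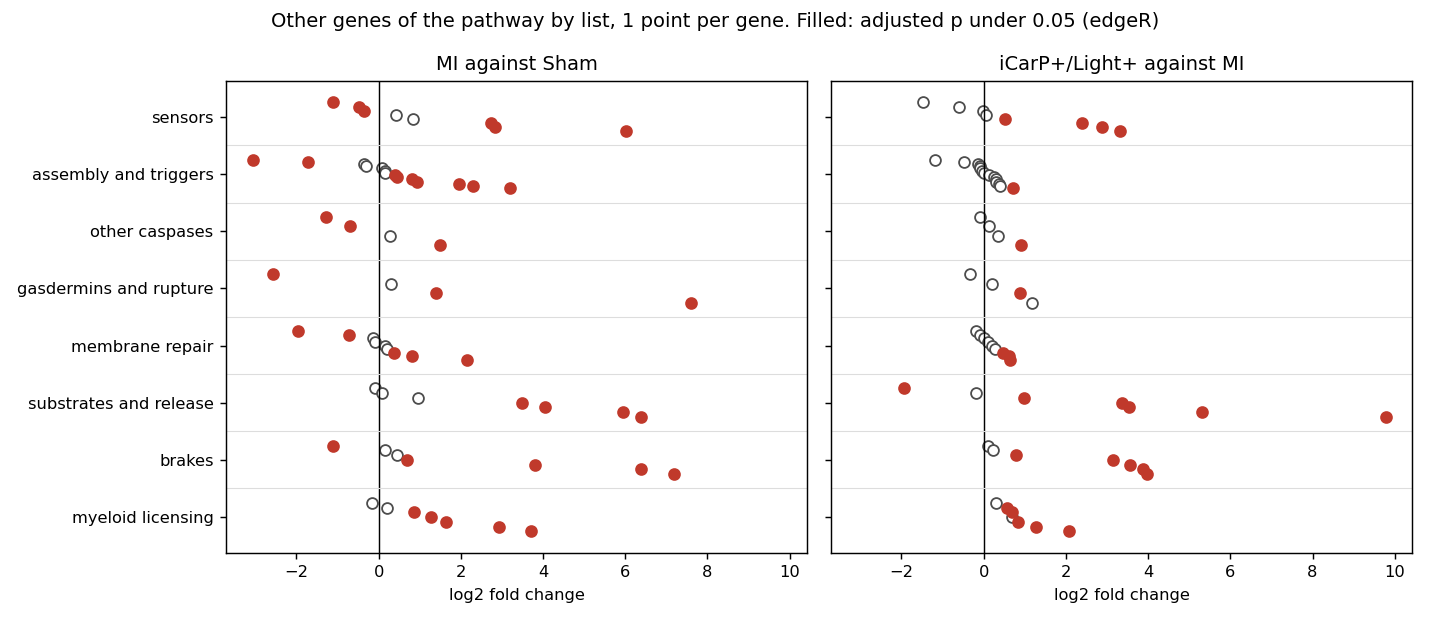
log2 fold change of each of the 60 other pathway genes tested, by list, MI against Sham on the left and iCarP+/Light+ against MI on the right, 1 point per gene. Filled points have an adjusted p under 0.05 in edgeR. On the right the points beyond 3 are sensors, cytokines and alarmins, or restraining genes, and the single filled point below 0 is Il18.

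Markers of white blood cells also changed, in directions that differed between cell types at the second step. In bulk tissue a change in the number of cells of a type and a change in RNA per cell cannot be told apart. The leukocyte list, 10 genes shared by white blood cells, summed to 383 to 532 CPM in Sham rats, 2944 to 4140 in MI rats and 4746 to 9361 in treated rats, with 9 of 10 genes called higher with MI and 7 of 10 called higher from MI to iCarP+/Light+. Ptprc (CD45), which defines them, rose by 3.07 (SE 0.22) and 0.84 (SE 0.21, adjusted p = 0.0152, edgeR) on the log2 scale. The neutrophil list of 10 genes summed to 21.2 to 36.2, 450 to 740 and 3229 to 9360 CPM, with 9 and 10 genes called higher, among them Csf3r, the receptor of the growth factor G-CSF (5.76, SE 0.38, and 2.67, SE 0.31). The macrophage list of 9 genes summed to 410 to 635, 842 to 1545 and 580 to 807 CPM, with 5 genes called higher with MI, and 5 called lower and 1 higher from MI to iCarP+/Light+. Its defining genes Cd68 and Csf1r were -0.39 (adjusted p = 0.327, edgeR) and -0.56 (adjusted p = 0.0788, edgeR). Of 7 red blood cell genes, 5 were called lower from Sham to MI and 4 higher in treated than in MI rats, and their median log2 fold change between Sham and treated rats was 0.46. Of 10 fibroblast genes 7 were called lower and 1 higher with MI, of 9 endothelial genes 8 lower and of 8 lymphocyte genes 3 higher, while from MI to iCarP+/Light+ 1 fibroblast gene was called higher and 1 lymphocyte gene lower. Over all genes tested, 30.2% were called higher and 33.6% lower from Sham to MI, and 11.6% and 2.01% from MI to iCarP+/Light+. The 3 lymphocyte genes with MI and the 1 fibroblast gene at the second step were near these shares. None of the leukocyte, neutrophil or macrophage genes was at 0 counts throughout any group. Their part in the changes of the members was not tested.

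Set against the leukocyte list, the members fell into different patterns. The log2 CPM of Nlrp3 minus the mean log2 CPM of the list was -2.66 ± 0.312 in Sham, -2.62 ± 0.206 in MI and -1.14 ± 0.043 in treated rats (SD, n = 4 each), level at the first step and higher at the second. Nlrc4 gave -4.23 ± 0.403, -4.05 ± 0.269 and -2.55 ± 0.228. Pycard dropped at each step, with -1.34 ± 0.208, -2.41 ± 0.351 and -3.82 ± 0.411, and so did Gsdmd, with -0.67 ± 0.1005, -2.78 ± 0.103 and -4.20 ± 0.507. Casp4 fell from -1.10 ± 0.388 in Sham to -4.33 ± 0.110 in MI and was -4.27 ± 0.357 in treated rats. Against the neutrophil list instead, Nlrp3 was 1.86 ± 0.315 in Sham, 0.32 ± 0.334 in MI and -0.83 ± 0.257 in treated rats (SD, n = 4 each), lower at each step. These differences are descriptions without a test.

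**Figure D5:**
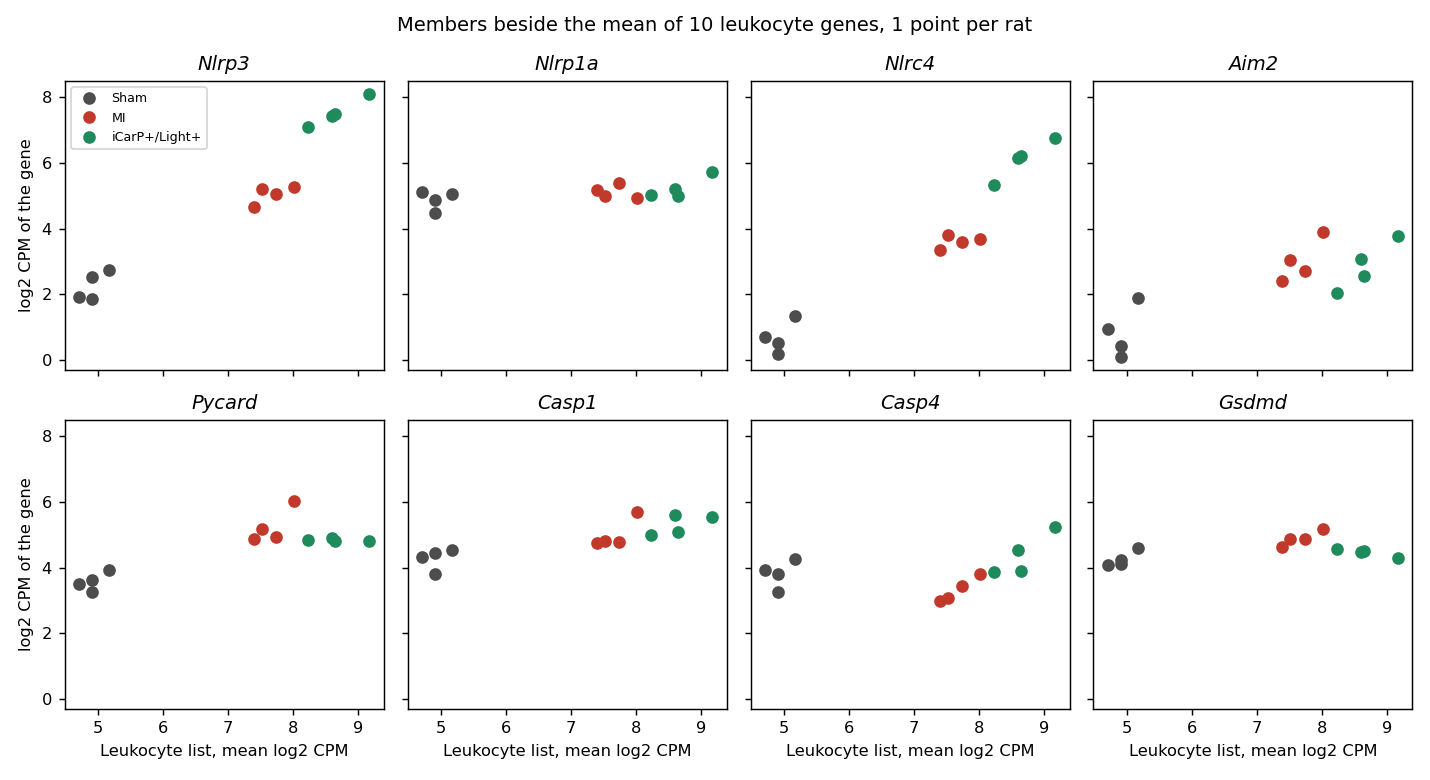
log2 CPM of each member against the mean log2 CPM of 10 leukocyte genes, 1 point per rat, coloured by group. Nlrp3 and Nlrc4 reach their highest values in the treated rats, while Pycard in treated rats overlaps the low end of the MI rats and Gsdmd lies below them, at a higher leukocyte mean.

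Within each group, 1 rat led both the leukocyte and the neutrophil list and most members. Sham rat 5 was the highest of its group in 7 of the 8 members, MI rat 4 in 6 and iCarP+/Light+ rat 5 in 5. Pycard, Casp1 and Gsdmd were the members for which iCarP+/Light+ rat 5 was not the highest. Without iCarP+/Light+ rat 5, Nlrp3 and Nlrc4 remained called higher than in MI, and Casp4 did not.

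The genes most like each member over the 12 rats were sought among 10720 protein-coding genes with a mean of at least 5 CPM, by Pearson's r of log2 CPM, as a description. The differences between the 3 groups enter these values. For Nlrp3 they were Apobr, Tes and Mmp9 (r = 0.995, 0.994 and 0.994), and for Nlrc4 they were Tes, Lmnb1 and Lilrc2 (r = 0.995 each). Mmp9 is a protease of neutrophil granules and a member of the neutrophil list. For Pycard they were Ndfip1, Acot9 and Aif1 (r = 0.982, 0.978 and 0.974), of which Aif1 (Iba1) is known from macrophages. Gsdmd was nearest to Ly86, Rrp7a and Comtd1 (r = 0.957, 0.951 and 0.950), Aim2 to Cenpl, Plac8 and Hpcal1 (0.959, 0.954 and 0.949), Casp1 to Mbd2, Tmco1 and Prdx1 (0.951, 0.945 and 0.945), Nlrp1a to Sema3c, Dnajc13 and Gramd1b (0.938, 0.914 and 0.901) and Casp4 to Mkln1, Dgat1 and Trim26 (0.908, 0.905 and 0.901).

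With each group's mean subtracted, so that only differences between rats of one group were left, the nearest genes were Parvg, Ccdc88b and Pdcl for Nlrp3 (r = 0.953, 0.937 and 0.934) and Clec7a, Wipf1 and RGD1307182 for Nlrc4 (r = 0.971, 0.938 and 0.938). Psme2, a subunit of the proteasome activator, came first for Pycard (r = 0.962), Slc28a2, a nucleoside transporter, for Casp1 (r = 0.949) and Cd200r1, an inhibitory receptor of myeloid cells, for Casp4 (r = 0.961). Elf1 came first for Aim2 (r = 0.954), Rbms1 for Nlrp1a (r = 0.974) and Fbxl6 for Gsdmd (r = 0.948). Sema3c was among the 3 nearest genes of Nlrp1a by both measures (r = 0.938 over 12 rats and 0.934 here). With 12 rats in 3 groups and 10720 genes searched, high values of r are reached by many genes.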

How the data were processed

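Total RNA of LV tissue was sequenced from 12 rats, 4 per group, and the authors deposited raw read counts per gene with gene symbols, positions and lengths. Per the submitters' processing notes, reads were aligned with HISAT2 and counted with featureCounts on build rn6. Versions, annotation release and strand setting are not given in the sources used here, and the library kit does not mark strand. Between 14064414 and 17136958 counts per rat were assigned to genes. Samples were grouped by their labels, which name each as a separate rat.

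Counts were filtered with filterByExpr (minimum count 10), scaled by TMM and tested with edgeR 4.0.16 (R 4.3.3; glmQLFit and glmQLFTest, 1 mean per group, all 12 rats), with Benjamini-Hochberg adjustment over the 15101 genes tested and a threshold of 0.05. CPM and TPM (from the deposited gene lengths) were computed from the same counts, and log2 CPM used a prior count of 2. Two-sided exact permutation tests were run in scipy 1.17.1. On counts simulated for MI against Sham over 15101 genes, the fit recovered 91 of 100 genes changed 4-fold and 45 of 100 changed 2-fold, with 8 false calls among 144. For iCarP+/Light+ against MI it recovered 89 and 51, with 6 false among 146. In each comparison only these 100 and 100 genes had been changed. In the rats' own counts 9634 genes were called from Sham to MI and 2050 from MI to iCarP+/Light+. Recovery and false calls with changes that widespread were not tested. Within groups, the 18 pairs of rats differed by far more than sampling noise (chi-square per gene 14.0 to 111), so none was a copy.

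Alternatives were DESeq2's size factors, total counts, no mitochondrial genes, DESeq2 1.42.0, limma-voom (limma 3.58.1), other count filters, the compared groups alone, a replicate block and each rat left out. Those for the named pathway genes were added after the data had been seen. The members and gene lists were chosen with earlier results of these data known. All 8 members were named. From the 8 pathway lists the text named Il1b, Il18, Nek7, Gsdme and Ninj1 and, for MI against Sham and iCarP+/Light+ against MI, up to 2 called genes per list with the largest absolute log2 fold change. From the cell type lists it named Ptprc, S100a8, Csf3r, Cd68, Csf1r, Myh6 and Tnnt2, and for likeness the 3 genes of highest r per member. Of 153 symbols in the lists, 14 were not matched and were not analysed here. A gene that this rule picks is not reported here.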

Additional observations from a re-analysis of the deposited data

Results flagged for a closer look

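The values of 2 rats stood apart from the other 3 rats of their group by Dixon's ratio of gap to range and its 95% critical value. Casp1 in MI rat 4 was 51.9 CPM, against 27.0 to 27.7 in the other MI rats (ratio 0.958, computed on log2 CPM). The mean log2 CPM of the macrophage list in Sham rat 5 was 5.57, while the other 3 Sham rats had 4.99 to 5.02 (ratio 0.953). In all 33 groups of 4 values were tested in this way, and chance passes about 1 in 20, or 1.65 of them.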

How the results depend on the processing

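Of the values of the members' log2 fold changes under alternatives, 275 of 288 with a rat left out and 200 of 216 under other settings kept their direction and side of the threshold. Nlrp3 and Nlrc4 kept theirs in all 3 comparisons under every alternative that was run. With total counts, 3936 genes were called from MI to iCarP+/Light+ in place of 2050, of the members 5 in place of 3 (Pycard and Gsdmd lower), and 8 of 8 from Sham to iCarP+/Light+ in place of 5. That scaling turned Casp4 (0.084) and Txnip (0.27) from Sham to MI, Nlrp1a (-0.14), Casp1 (-0.0085), Casp12 (-0.15) and Ninj2 (-0.071) from MI to iCarP+/Light+, and Gsdme (0.27) from Sham to iCarP+/Light+. Gsdme was also turned by limma-voom (0.013) and without Sham rat 1 (0.39), Sham rat 5 (0.0045), iCarP+/Light+ rat 2 (0.18) or rat 4 (0.043), over a range of -0.30 to 0.39. From MI to iCarP+/Light+, leaving out rats turned Aim2 (0.26 without MI rat 4, 0.094 and 6.4e-04 without iCarP+/Light+ rats 1 and 4, range -0.60 to 0.26), Nek7 (0.074 without MI rat 5, range -0.18 to 0.074), Gbp5 and Casp12 without iCarP+/Light+ rat 2 (-0.064, range -0.064 to 0.67, and -0.019, range -0.019 to 0.22), and Nlrp1a and Ninj2 without iCarP+/Light+ rat 5 (-0.13, range -0.13 to 0.23, and -0.053, range -0.053 to 0.45). None of these turned values passed the threshold in either fit, and the cause was not tested.

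With a rat left out in turn, 9036 to 9858 genes were called from Sham to MI, 1399 to 2504 from MI to iCarP+/Light+ and 9541 to 10575 from Sham to iCarP+/Light+, of the members 6 to 6, 2 to 4 and 5 to 6, and of the pathway genes 39 to 42, 19 to 28 and 45 to 47. Besides the calls of Casp4 and Gsdmd from MI to iCarP+/Light+ given with their values, Casp4 was called from Sham to iCarP+/Light+ without iCarP+/Light+ rat 1 (0.81, adjusted p = 0.0412, edgeR) or rat 4 (0.80, adjusted p = 0.0475). Casp4 from MI to iCarP+/Light+ was 1.09 with the compared groups alone (adjusted p = 0.0612, edgeR). A filter of 10 counts in every rat left no value for Gsdma, Gsdme, Il1a, Il1r2, Ninj2, Nlrp12 and S100a8, and the compared groups alone left none for Il1a from Sham to MI and Ninj2 from MI to iCarP+/Light+.

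Replicate numbers occur in several groups but belong to different rats. Over 9 same-numbered pairs, deviations from the group means correlated at -0.15 to 0.07, and 0 rats matched their own number best, so the numbers share only a name. With the replicate block, 1298 genes were called from MI to iCarP+/Light+, Nek7 turned to 0.012 there, Casp4 was 1.09 (adjusted p = 0.120, edgeR), Ninj1, Anxa2 and Txnip were not called there (adjusted p = 0.0734, 0.132 and 0.0578), Casp1 from Sham to MI was 0.64 (adjusted p = 0.0783) and Nlrp1a from Sham to iCarP+/Light+ was 0.46 (adjusted p = 0.0492). Among the 8 members, depth limits Aim2 and Nlrc4 most, with 14 to 49 and 15 to 33 counts per Sham rat.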

Other observations

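Ratios of TPM between members were computed after the levels had been seen and are given as values without a test (treated stands for iCarP+/Light+). Within each rat such a ratio does not depend on library scaling. Nlrp3 per Nlrc4 was 2.78 ± 1.22 in Sham, 2.27 ± 0.190 in MI and 2.24 ± 0.374 in treated rats (SD, n = 4 each), so these sensors held a similar ratio while both rose. Nlrp3 per Pycard, the sensor against its adaptor, was 0.0648 to 0.134 in Sham rats, 0.131 to 0.246 in MI rats and 1.07 to 2.20 in treated rats, and the treated rats were the only ones with more Nlrp3 than Pycard per length. Nlrp3 per Casp1 was 0.0959 ± 0.0417, 0.388 ± 0.0979 and 1.76 ± 0.384.

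Casp1 per Pycard was 0.886 to 1.08 in Sham rats, 0.464 to 0.558 in MI rats and 0.672 to 1.01 in treated rats, lowest in MI without overlap. Gsdmd per Pycard was 0.767 ± 0.0661 in Sham, 0.376 ± 0.0843 in MI and 0.365 ± 0.0290 in treated rats (SD, n = 4 each), nearly level between the infarcted groups. Casp4 per Casp1, neighbours on chromosome 8, was 0.812 to 1.03 in Sham rats, 0.337 to 0.496 in MI rats and 0.551 to 1.02 in treated rats.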
